A study of Mus musculus with 9 samples.

Results

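Leukaemia cells recovered from the lungs of mice were compared, gene by gene, with leukaemia cells recovered from the bone marrow. They belong to a mouse model of acute myeloid leukaemia (AML) with the genotype Trp53(R172H/delta), where the R172H allele encodes a p53 protein with 1 amino acid exchanged. Both tissue groups carried this genotype and came from wild-type recipient mice. The 3 lung and the 3 bone marrow libraries were chosen by their labels, 6 of the 9 libraries in the series, and all genes with enough reads entered the comparison. The other 3 libraries came from cells of the same genotype grown in culture and are given here only as levels, with no test. Whether the leukaemia is 1 clone, how the cells were separated from each tissue and how long they had been in the mice is not stated in the labels. Any effect of separation or handling that differed between the tissues therefore cannot be told apart from an effect of tissue. The labels number the libraries of each tissue 1 to 3 without saying that they came from separate mice, so p-values measure only the spread between these libraries, which may be technical.

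AML is a cancer of immature blood cells that usually fills the bone marrow and can also spread to organs such as the lung. When a blood cell is stimulated by a cytokine, by contact with other cells or by stress, it first transcribes a set of immediate early genes, many of which encode transcription factors of the AP-1 and EGR families. The same stimuli free NF-kB from its inhibitors, and both programmes then switch on genes for phosphatases, inhibitors and mRNA-destroying proteins that shut them down again. The study's title names tissue microenvironments in AML as its subject, so this comparison asks how the RNA of the same leukaemia differs between a marrow and a lung setting.

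The 6 libraries held 30075877 to 38761363 counted reads, so that 1 read corresponded to 0.0258 to 0.0333 CPM (read counts normalised to the scaled size of each library). Of 14574 genes tested, 1400 were higher in lung (9.61%) and 981 were lower (6.73%) at a Benjamini-Hochberg adjusted p under 0.05 in edgeR's quasi-likelihood test. Upper-quartile scaling moved this split to 1238 higher and 1296 lower. Most genes differed little: 74.5% lay within 0.5 of 0 on the log2 scale, on either side. Large changes among called genes were mostly rises. More than 2-fold higher were 541 genes (3.71% of those tested) and more than 2-fold lower 233 (1.6%), with 155 against 21 past 8-fold. Tested against a change of 1.5-fold with glmTreat, 329 genes passed (2.26%), 287 of them higher. Among called genes with a mean of 10 CPM or more, 113 had risen and 3 had fallen by more than 2-fold. The falls depended most on single libraries: 180 genes were lower without bone marrow replicate 2, 216 without lung replicate 2, 348 without lung replicate 1 and 487 without lung replicate 3. The rises numbered 630, 668, 886 and 1086 in the same fits.

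**Figure D1:**
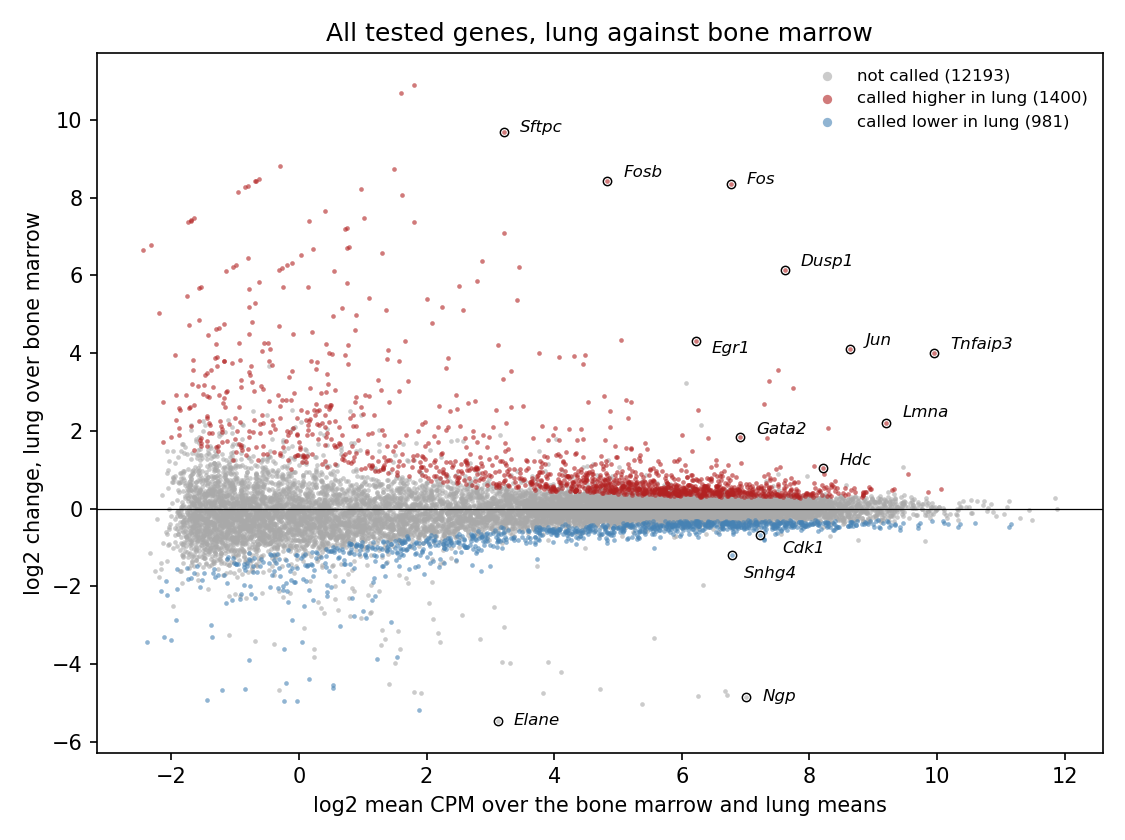
Log2 change in lung over bone marrow of each of the 14574 tested genes (vertical axis) against its log2 mean CPM (horizontal axis), with the genes called higher or lower in colour and named examples circled. The rises reach far above the band that holds most genes, as for Fosb at 8.42, whereas called falls at high levels stay close to it.

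The labels were checked on the RNA. Trp53 stood at 358, 313 and 302 CPM in bone marrow replicates 1, 2 and 3 and at 308, 340 and 383 CPM in lung replicates 1, 2 and 3 (log2 change 0.08 ± 0.11, SE; adjusted p = 0.6263). The groups overlapped, and the reads do not show which allele they came from. Kit, the stem cell factor receptor of immature blood cells, was at 576 to 680 CPM in bone marrow and 509 to 775 CPM in lung and did not pass (adjusted p = 0.9871). Gata1, the master factor of erythroid, megakaryocyte and mast cells, was at 327 to 374 and 290 to 358 CPM (adjusted p = 0.4679). Markers common in myeloid leukaemias were low: Ptprc, the leukocyte antigen CD45, reached at most 17.4 CPM in bone marrow replicate 3, and Spi1, the myeloid factor PU.1, at most 18.3 CPM. Flt3 and Cebpa, chosen after their values were seen, were below 1 CPM in every library. The libraries held RNA of Kit and of some erythroid genes, such as Klf1 (265 to 336 CPM over the 6 libraries) and Car2 (1104 to 1264 CPM), also chosen after their values were seen. Another gene of the erythroid list, Slc4a1, was at only 3.14 to 12.8 CPM. The whole erythroid list summed to 4067 to 5263 CPM in bone marrow and 3785 to 4161 CPM in lung. Mast cell and basophil genes were present as well, with sums of 932 to 1053 CPM and 1204 to 1528 CPM. Ddx3y, a gene of the Y chromosome, had 0 CPM in every library, and Xist was at 10.8 to 41.6 CPM. Without bone marrow replicate 3 Ptprc was called higher in lung (log2 change 1.94), and so was Xist without bone marrow replicate 2 (1.31).

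RNA of other cell types was present and unequal between libraries. The 18 secondary granule genes of neutrophils summed to 474, 772 and 2507 CPM in bone marrow replicates 1, 2 and 3 and to 283, 141 and 129 CPM in lung. Bone marrow replicate 3 therefore stood apart, also for the monocyte list (392 CPM against 50.4 to 108 CPM in the other 5 libraries). Lung replicate 1 held the most RNA of the lung epithelium list, 109 CPM, against 68.3 and 38.4 CPM in the other lung libraries and 13.5 to 29.8 CPM in bone marrow. On this list the cultured cells summed to 33.8 to 37.1 CPM, above every bone marrow library and close to lung replicate 3. Which cells the RNA of this list came from was not tested. In bulk RNA, fewer cells of a type and less RNA per cell cannot be told apart. Without bone marrow replicate 3, 1368 genes were higher and 843 lower, and without lung replicate 1, 886 and 348.

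Many genes of AP-1, the dimeric transcription factor formed by FOS, JUN, ATF and MAF proteins, were higher in lung. Of 11 tested members 9 passed and none was lower, with a median log2 change of 3.09, against -0.014 over all tested genes. The counts of this and every later list stand against 9.61% higher and 6.73% lower among all tested genes. The lists were chosen with earlier results of these data known, so these shares describe the lists and are not a test. Fos, a founding member of the family, was at 0.54, 0.6 and 0.829 CPM in bone marrow and at 198, 192 and 262 CPM in lung. This is a rise of 8.34 ± 0.20 in log2 (SE; adjusted p = 2.24e-09). Fosb was at 0.21, 0.0631 and 0.201 CPM and at 63.6, 50.9 and 56 CPM (8.42 ± 0.25, adjusted p = 3.10e-09). Both genes were near the floor of detection in all 3 bone marrow libraries and plentiful in all 3 lung libraries. Jun, the usual partner of FOS proteins, went from 40.1, 44.4 and 46 CPM to 709, 640 and 904 CPM (4.11 ± 0.14, adjusted p = 2.05e-08). Atf3, an AP-1 member induced by many stresses, was at 0.691, 0.979 and 1 CPM against 12.4, 10.8 and 26.4 CPM (4.20 ± 0.39, adjusted p = 5.00e-04). None of these groups overlapped, and lung replicate 3 was the highest library for Fos, Jun and Atf3. In the cultured cells Fos stood at 9.4 to 14.5 CPM and Jun at 172 to 182 CPM, between the 2 tissues, while Fosb stayed at 0.531 to 1.14 CPM. The small MAF genes moved least: Mafk passed at 0.47, and Maff (0.38) and Mafg (0.31) did not, all 3 chosen after their values were seen.

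The EGR, NR4A and IER group encodes immediate early factors of other families, and all 9 of its tested members were higher in lung (median log2 change 2.50). Egr1, a zinc finger factor downstream of MAP kinases, was at 7.27, 7.73 and 6.63 CPM in bone marrow against 112, 128 and 186 CPM in lung, a rise of 4.30 ± 0.20 (adjusted p = 1.38e-06). Its cultured level was 178 to 200 CPM, overlapping the highest lung library. Nr4a1, an orphan nuclear receptor, rose from 2.37, 2.65 and 2.29 CPM to 30, 30.2 and 51.3 CPM (3.93 ± 0.24, adjusted p = 4.71e-06). Ier3, a survival gene, was at 16.1 to 28.8 CPM and at 123 to 136 CPM (2.54 ± 0.19), and Csrnp1, a nuclear protein induced by AXIN1, at 7.35 to 11.1 CPM and at 44.7 to 53 CPM (2.50 ± 0.17). In each of these genes the lowest lung library was at least 4 times the highest bone marrow library.

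**Figure D2:**
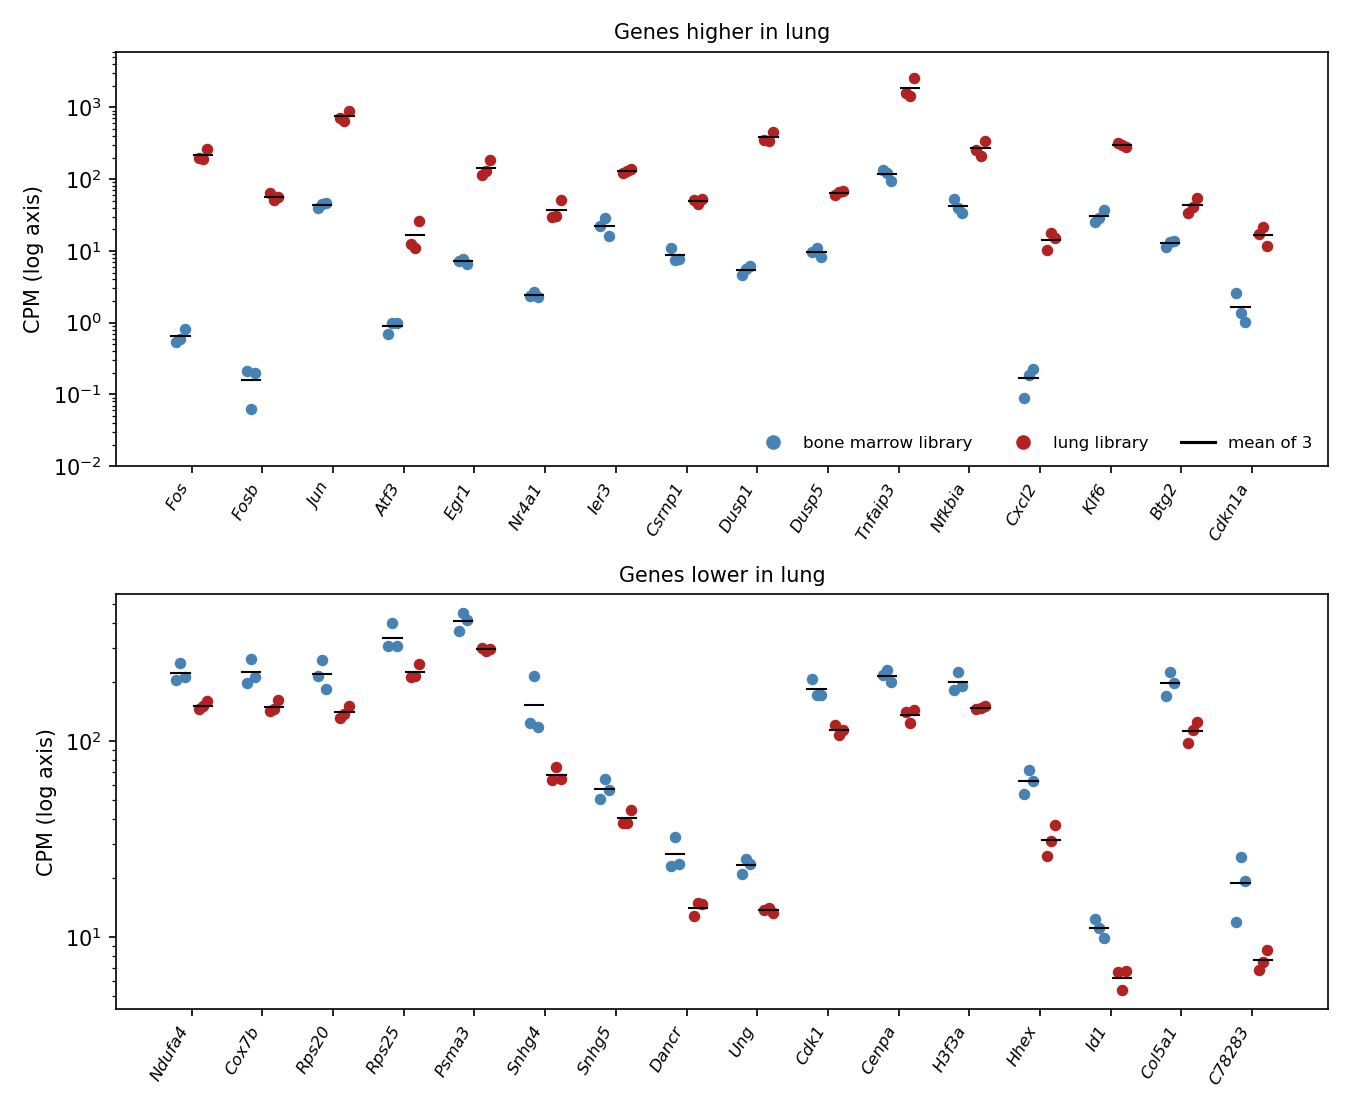
CPM of 32 named genes in each library (log axes), with bone marrow libraries in blue, lung libraries in red and a bar at the mean of 3; the upper panel holds genes higher in lung and the lower panel genes lower in lung. For the genes shown the groups do not overlap, and the gap is wide for Fos, Fosb, Dusp1 and Cxcl2 and narrow for genes such as Ndufa4 and Psma3.

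Promoter sequences of the genes with the largest rises are shown because these rises ran through a few families with well known binding letters. They are the 200 bases just before the start of each gene, 5′ to 3′ on the gene's strand, from RefSeq on GRCm38.p6. In the first 3, capitals mark TGACG on either strand, the shorter form of the cAMP response element, which ATF, CREB and AP-1 proteins bind, or the full element where it is present. Fos lies at chr12:85473690-85473889 (plus strand), Fosb at chr7:19310046-19310245 (minus strand) and Dusp1 at chr17:26508473-26508672 (minus strand).
Fos: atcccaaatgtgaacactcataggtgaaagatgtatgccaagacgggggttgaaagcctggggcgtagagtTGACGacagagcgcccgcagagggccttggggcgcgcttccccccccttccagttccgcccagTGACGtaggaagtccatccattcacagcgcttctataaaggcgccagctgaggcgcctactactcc
Fosb: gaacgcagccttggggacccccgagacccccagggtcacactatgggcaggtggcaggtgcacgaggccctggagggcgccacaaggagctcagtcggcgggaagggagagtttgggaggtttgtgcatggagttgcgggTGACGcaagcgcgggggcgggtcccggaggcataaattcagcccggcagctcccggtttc
Dusp1: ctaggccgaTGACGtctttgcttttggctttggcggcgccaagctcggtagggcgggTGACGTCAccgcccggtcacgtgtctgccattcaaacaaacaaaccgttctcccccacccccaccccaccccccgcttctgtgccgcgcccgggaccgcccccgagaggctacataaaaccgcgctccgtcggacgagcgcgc
In the next pair, capitals mark matches to the NF-kB site on either strand. Within each set, other letters are left unmarked even where they occur. Tnfaip3 lies at chr10:19015411-19015610 (minus strand) and Cxcl2 at chr5:90903699-90903898 (plus strand).
Tnfaip3: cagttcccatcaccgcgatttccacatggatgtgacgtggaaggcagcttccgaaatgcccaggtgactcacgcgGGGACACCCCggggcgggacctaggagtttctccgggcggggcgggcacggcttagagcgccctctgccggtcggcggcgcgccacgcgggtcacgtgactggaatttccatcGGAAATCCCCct
Cxcl2: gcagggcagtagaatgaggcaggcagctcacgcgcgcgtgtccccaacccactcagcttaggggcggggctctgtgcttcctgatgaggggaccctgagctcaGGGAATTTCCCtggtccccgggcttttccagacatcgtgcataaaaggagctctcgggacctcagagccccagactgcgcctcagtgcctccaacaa

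Over the 250 bases before the start, 9374 of the 11715 tested protein-coding genes had a RefSeq promoter, and matches on either strand were counted. TGACG, which is also contained in TGACGTCA, was present in 10 of the 17 promoters of the AP-1 and EGR groups (58.8%) and in 27.3% of all 9374. The full element TGACGTCA was present in 0 of the 17, against 2.81% of all, and the AP-1 site TGANTCA in 0, against 4.05%. Of the same 17, 5 held an NF-kB site (29.4%, against 8.65% of all), among them Fos and Fosb. Conversely, Tnfaip3 held TGACG and TGANTCA besides its NF-kB sites. An NF-kB site was present in 7 of the 15 promoters of the NF-kB group (46.7%), against 8.65% of all. That group includes NF-kB targets by choice, so its share does not bear on the change in lung. Among genes of 10 CPM or more in either tissue, 18.6% of the 118 that had risen by more than 2-fold held an NF-kB site, against 8.41% of all 6992. With the level set on the mean of both tissues, which lung alone decides less, the shares were 21.6% of 97 and 8.43% of 6867. TATAAA was present in 14.4% of these 118 against 5.49% of all, and the ETS site CCGGAAGT in 1.69% against 7.61%. TGACG was about as common in the 118 as in all (32.2% against 30.4%), as were CCAAT (38.1% against 37.7%) and TGANTCA (4.24% against 3.3%). TGACGTCA was in 5.08% against 3.1%, the E-box CACGTG in 4.24% against 9.15%, and the GATA letters AGATAA in 9.32% against 5.43%. The interferon-stimulated response element was in 5.08% against 2.55%, and the CArG box in 2.54% against 1.13%. The 644 genes with smaller rises held the NF-kB, TATAAA and ETS letters in 9.01%, 4.66% and 7.14%, close to all genes. The 455 genes that fell held fewer GC boxes, GGGCGG, in 52.3% of promoters against 63.3%. These are shares of promoters with a match to letters, not of bound sites, and they were not tested.

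MAP kinase signalling passes growth and stress signals to these factors, and its dual-specificity phosphatases are induced by it and remove its phosphates. In this group 6 of 12 tested members were higher in lung and none was lower (median log2 change 0.44). Dusp1, whose promoter holds the full element shown above, was at 4.65, 5.55 and 6.25 CPM in bone marrow and at 356, 340 and 459 CPM in lung (6.13 ± 0.17, adjusted p = 3.10e-09). Cultured cells held 27.9 to 31.9 CPM of Dusp1. Dusp8, which acts on stress-activated kinases, rose from 2.46, 4.01 and 2.81 CPM to 36.9, 44.6 and 41.2 CPM (3.73 ± 0.19). Dusp5, a nuclear ERK phosphatase, rose by 2.74 ± 0.14 and Dusp16 by 1.77 ± 0.20. Dusp18, a phosphatase outside this group, was at 0.21, 0 and 0.176 CPM in bone marrow against 25, 16.2 and 14 CPM in lung (7.08 ± 0.52, adjusted p = 1.72e-04). The Sprouty and Spred inhibitors of the same pathway, chosen after their values were seen, did not pass, with log2 changes from -0.10 for Spry4 to 0.50 for Spry1.

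NF-kB genes rose alongside them: 12 of 18 tested subunits, inhibitors and targets were higher in lung and none was lower (median log2 change 0.86). Tnfaip3, the ubiquitin-editing inhibitor A20, was at 134, 122 and 95.5 CPM in bone marrow and at 1593, 1448 and 2566 CPM in lung (4.0 ± 0.26, adjusted p = 2.48e-04), and at 115 to 120 CPM in culture. Nfkbia, the inhibitor that holds NF-kB in the cytoplasm, rose from 52.9, 39 and 34.2 CPM to 255, 209 and 344 CPM (2.68 ± 0.23). Lung replicate 3 was the highest library for both inhibitors, and the groups did not overlap. Nfkbiz, an atypical nuclear inhibitor, rose by 2.74 ± 0.15, and Relb, a subunit of the non-canonical pathway, from 2.84 to 3.3 CPM up to 11.8 to 14.8 CPM (2.10 ± 0.17). The canonical subunit gene Nfkb1 (0.26) and the A20 partners Tnip1 (0.15) and Tnip2 (0.25), chosen after their values were seen, did not pass.

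Among genes for secreted signals, 12 of 20 tested cytokines and chemokines were higher and 1 was lower (median log2 change 1.25), with 7 higher without bone marrow replicate 2. Cxcl2, a chemokine that draws neutrophils, was at 0.0901, 0.189 and 0.226 CPM in bone marrow and at 10.2, 17.9 and 15 CPM in lung (6.36 ± 0.34, adjusted p = 6.84e-07). Il1b, an inflammatory cytokine, was at 2.16 to 2.94 CPM against 4.67 to 6.55 CPM (1.12 ± 0.23). Vegfa, the vascular growth factor, was at 0.51, 0.726 and 2.56 CPM against 10.5, 8.98 and 9.83 CPM (2.92 ± 0.55, adjusted p = 0.01579). The Vegfa call was lost without bone marrow replicate 2 (adjusted p = 0.0523), lung replicate 1 (0.0628) or lung replicate 2 (0.056), and cultured cells held 101 to 125 CPM. Monocyte and macrophage markers, whose cells also make these signals, were called in 1 of 16 higher and 1 lower, but in 7 higher without bone marrow replicate 3, and in 0 to 2 higher and 0 to 3 lower without any other library. Csf1r, chosen after its values were seen, was at 1.17 to 5.07 CPM in bone marrow and 6 to 11.5 CPM in lung (adjusted p = 0.1032). The part of such cells in the rises was not tested.

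Proteins that destroy short-lived mRNAs formed a further group, with 7 of 13 tested members higher and none lower (median log2 change 0.58). Zfp36, tristetraprolin, which removes cytokine mRNAs, rose from 5.46, 4.86 and 9.19 CPM to 42.6, 43.2 and 60 CPM (2.89 ± 0.26). Zc3h12a, the RNase Regnase-1, rose by 1.90 ± 0.25, Btg2, an anti-proliferative recruiter of deadenylases, by 1.75 ± 0.18 and Zfp36l1 by 1.08 ± 0.12 on the log2 scale. Kruppel-like factors rose too, 8 of 11 with none lower, or 4 without bone marrow replicate 2. Klf6, an early response member, was at 25.6, 29 and 37.2 CPM in bone marrow and at 319, 299 and 279 CPM in lung (3.29 ± 0.14, adjusted p = 1.40e-07). Klf2, a factor of quiescence in lymphocytes and endothelium, was at 0.57, 1.36 and 2.81 CPM against 22.9, 19.7 and 12.9 CPM (3.53 ± 0.54). Endothelial markers were also higher in lung, and their part in the Klf2 result was not tested.

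Several single genes with large rises encode proteins of the cell surface, its signalling or the cytoskeleton. Cd69, an early activation antigen that retains lymphocytes in tissues by removing the receptor S1PR1 from the surface, was at 0.36, 0.568 and 0.578 CPM in bone marrow and at 29.8, 14.4 and 18.5 CPM in lung (5.37 ± 0.34, adjusted p = 1.17e-05). Rgs2, which dampens G protein signalling, was at 1.89 to 5.15 CPM against 60.5 to 66.1 CPM (4.33 ± 0.37), and Gem, a small GTPase of the RGK family, at 1.23 to 2.04 CPM against 19.3 to 28.6 CPM (3.99 ± 0.23). Tppp, a tubulin-binding protein, was at 0.253 to 0.301 CPM against 27.4, 26.6 and 10.7 CPM (6.22 ± 0.45). Cd69 lies on chromosome 6 from 129267325 to 129275436 (GRCm38).

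Cytoskeletal and nuclear lamina genes, many of them targets of the serum response factor, were higher in 7 of 16 tested members and lower in none (median log2 change 0.67). Lmna, the nuclear lamin A and C gene, was at 235, 198 and 195 CPM in bone marrow and at 914, 1019 and 972 CPM in lung (2.21 ± 0.10, adjusted p = 2.53e-07), with 364 to 404 CPM in culture. The 3 lung libraries lay within 914 to 1019 CPM, far above every bone marrow library. Tagln2, an actin-bundling protein, went from 470 to 601 CPM up to 923 to 1012 CPM (0.89 ± 0.11), and the tropomyosin Tpm4 rose by 1.54 ± 0.15. The intermediate filament gene Vim was at 207, 170 and 142 CPM against 388, 414 and 296 CPM (1.08 ± 0.16). Among 21 tested homing and adhesion genes 6 were higher and none lower, including Itga5, the fibronectin receptor subunit, at 113 to 123 CPM against 203 to 269 CPM (1.01 ± 0.11). Itgb3, the vitronectin receptor subunit, rose by 1.28 ± 0.22. The marrow-retention genes Cxcr4 (0.14) and Itga4 (-0.11), chosen after their values were seen, did not pass.

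The integrated stress response, which lets cells translate the factor ATF4 when amino acids or protein folding fail, had 12 of 20 tested members higher and none lower (median log2 change 0.89). Trib3, a pseudokinase that feeds back on ATF4, was at 6.39, 5.3 and 6.98 CPM in bone marrow and 26.2, 21.5 and 30.4 CPM in lung (2.06 ± 0.17, adjusted p = 2.96e-05). Ppp1r15a, the phosphatase subunit GADD34 that ends the response, rose from 35.4 to 41.5 CPM up to 95.3 to 116 CPM (1.48 ± 0.11), and Atf4 itself by 0.89 ± 0.14. Ddit4, an inhibitor of mTORC1 that glucocorticoids also induce, rose by 2.09 ± 0.24. The ATF4 composite letters TGATGNAA were present in 4 of 18 promoters of this list (22.2%) and in 2.03% of all. The list was chosen for this response, so that share does not bear on its change in lung. Serine synthesis genes of the same list, chosen after their values were seen, did not pass, at -0.06 for Psat1 and 0.05 for Phgdh. Trib3 remained far below its cultured level of 182 to 204 CPM.

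Endoplasmic reticulum chaperones changed less, with 5 of 21 higher, or 1 without bone marrow replicate 2 or lung replicate 2 and 2 when lung replicate 1 or 3 was left out, and 4 of 24 heat shock genes were higher. Hspa5, the chaperone BiP, was at 698, 780 and 884 CPM in bone marrow and 1040, 957 and 1178 CPM in lung (0.43 ± 0.11), a call lost without bone marrow replicate 2 (adjusted p = 0.101) or any 1 lung library (0.0533 to 0.0938). Of 14 tested glucocorticoid targets 4 were higher, or 7 with DESeq2 or limma-voom, and none lower (median log2 change 0.73). Tsc22d3, the glucocorticoid-induced leucine zipper gene, was at 133, 119 and 111 CPM against 650, 522 and 344 CPM (2.06 ± 0.22, adjusted p = 0.001752). Of 14 circadian clock genes 3 were higher, or 5 without bone marrow replicate 3 and 2 without bone marrow replicate 2 or lung replicate 2. Bhlhe40, a repressor of the clock, rose by 1.42 ± 0.22 and Nr1d1, the repressor REV-ERB alpha, by 1.02 ± 0.19.

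Feedback inhibitors of cytokine receptors were higher in lung, with 7 of 17 tested JAK and STAT pathway genes up and none down (median log2 change 0.35). Socs3 was at 0.57, 0.221 and 1 CPM in bone marrow and 6.49, 4.41 and 6.84 CPM in lung (3.27 ± 0.44, adjusted p = 0.00171). Cish, a target of STAT5, rose from 14.7 to 21 CPM up to 44.2 to 61.9 CPM (1.55 ± 0.16), Socs5 by 2.02 ± 0.21 and Socs1 by 1.05 ± 0.15. None of the 4 overlapped between the tissues. The kinase genes Jak1 (0.27) and Jak2 (0.06) and the receptor signal transducers Stat3 (0.20) and Stat5b (0.09), chosen after their values were seen, did not pass.

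Antigen presentation and interferon genes rose by smaller steps. Of 16 tested MHC class I pathway genes 7 were higher and 1 lower (median log2 change 0.29), with 3 higher without bone marrow replicate 2 and 4 without lung replicate 2. H2-K1, a class I heavy chain whose reads can be shared with its paralogs, was at 127, 130 and 103 CPM against 240, 258 and 252 CPM (1.06 ± 0.10, adjusted p = 1.29e-04). Tapbp, the peptide-loading chaperone tapasin, rose from 244 to 270 CPM up to 378 to 409 CPM (0.59 ± 0.09). Of 23 type I interferon genes 9 were higher and none lower, and of 13 guanylate-binding and immunity-related GTPases 7 were higher, or 3 without bone marrow replicate 2 or lung replicate 3. Irf1, a factor downstream of interferon gamma and NF-kB, rose from 7.26 to 9.59 CPM up to 16.2 to 29.5 CPM (1.32 ± 0.23). The antiviral sensor gene Oas3 rose by 1.34 ± 0.18 and the guanylate-binding protein gene Gbp3, which may share reads with its paralogs, by 1.23 ± 0.22. H2-K1 stood at 256 to 271 CPM in the cultured cells, close to its lung level.

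**Figure D3:**
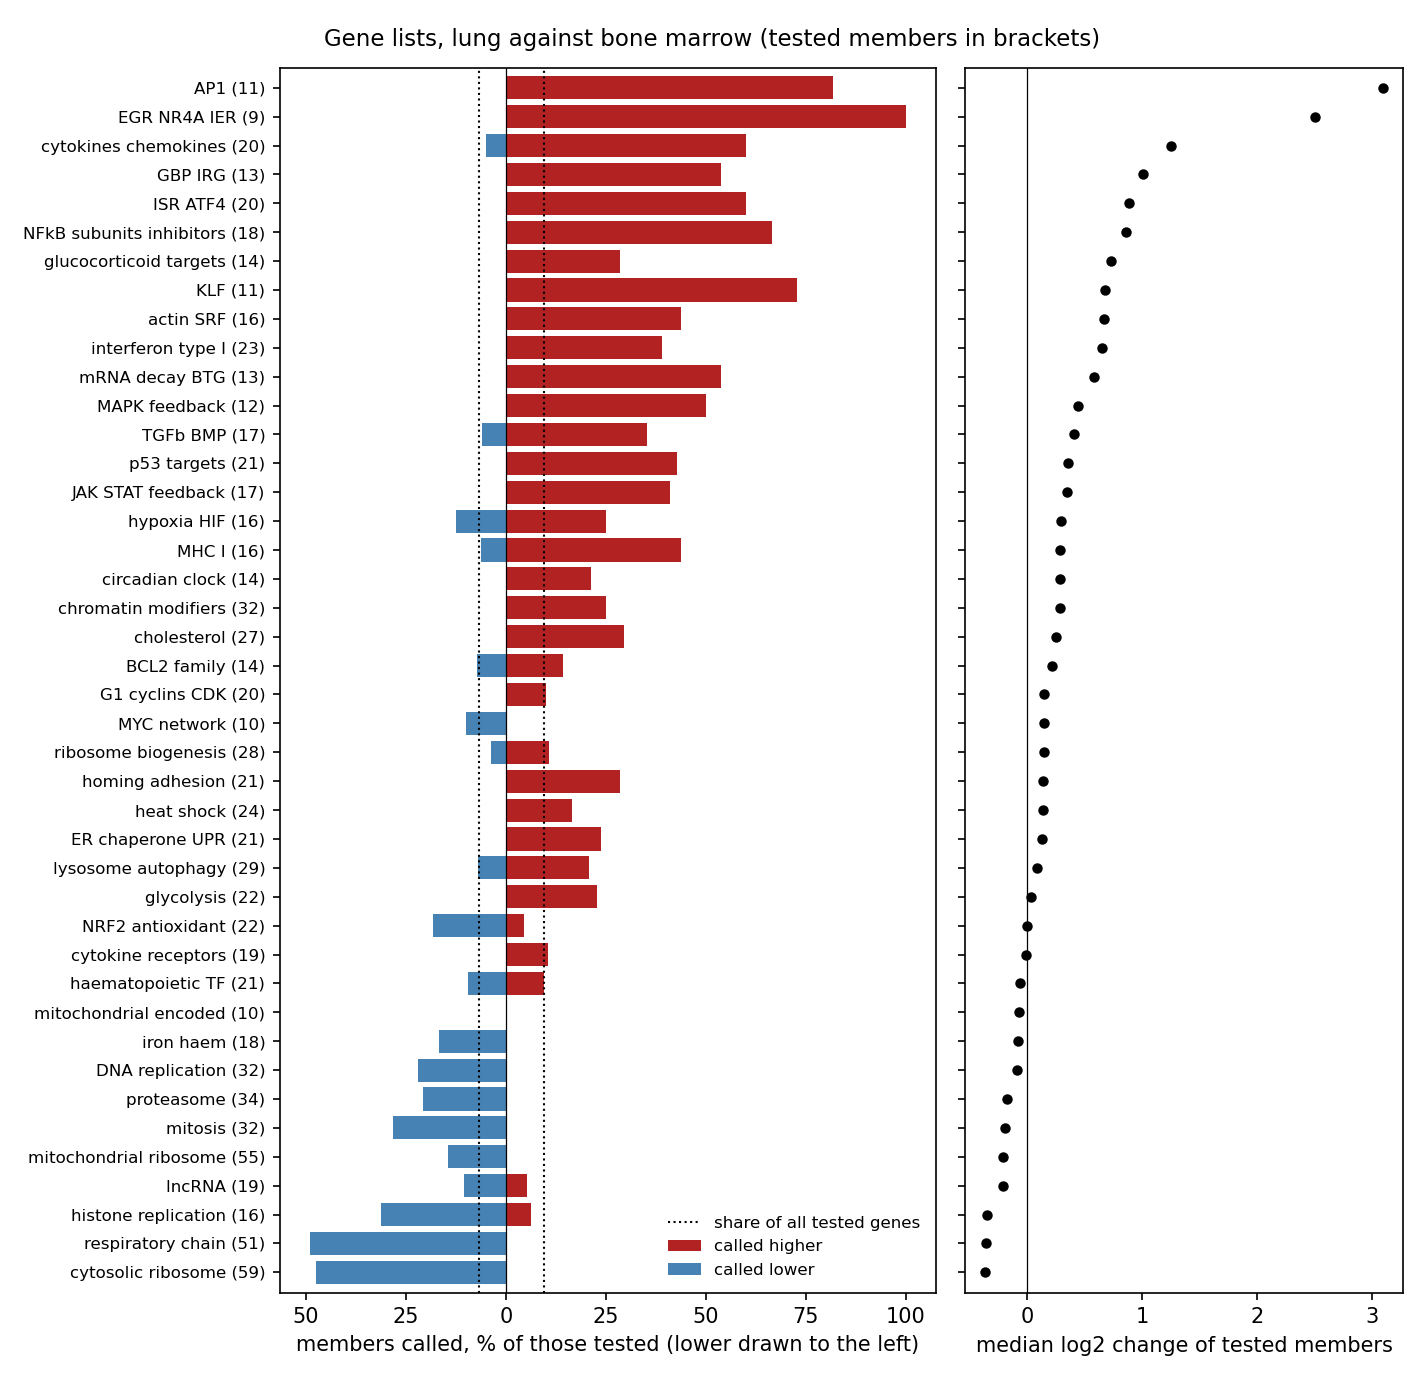
Share of tested members called higher (red, to the right) or lower (blue, to the left) in each gene list, with dotted lines at the shares over all tested genes (9.61% higher and 6.73% lower), and at the right the median log2 change of the tested members. The AP-1 and EGR lists lie at the top, with medians of 3.09 and 2.50, and the respiratory chain and cytosolic ribosome lists at the bottom, with -0.35 and -0.36.

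Factors that set blood cell identity differed at few genes: of 21 tested haematopoietic transcription factors 2 were higher and 2 lower, or 1 and 1 without bone marrow replicate 2 or lung replicate 2. Without lung replicate 1 there was 1 lower, and without lung replicate 3 there was 1 higher. Gata2, which acts in stem cells and mast cells, was at 56, 51.1 and 51.8 CPM in bone marrow and at 164, 209 and 192 CPM in lung (1.83 ± 0.11, adjusted p = 1.69e-06), and at 306 to 312 CPM in culture. Hhex, a homeobox factor of early progenitors, moved the other way, at 54.1, 71.7 and 62.9 CPM against 25.9, 31 and 37.4 CPM (-1.0 ± 0.15, adjusted p = 0.002199). Neither gene's groups overlapped. Gata2 lies on chromosome 6 from 88193891 to 88207032 and Hhex on chromosome 19 from 37434810 to 37440731 (GRCm38). Gata1, Klf1, Myb (0.13) and Tal1 (0.04) did not pass, the last 3 chosen after their values were seen.

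Genes of mast cells and basophils moved with Gata2, with 7 of 10 tested members higher and none lower (median log2 change 1.37), Gata2 itself among them. Hdc, the enzyme that makes histamine, was at 229, 198 and 158 CPM in bone marrow and at 392, 491 and 315 CPM in lung (1.03 ± 0.18, adjusted p = 0.009315). Cpa3, mast cell carboxypeptidase, was at 39.8, 37.7 and 32.1 CPM against 91.2, 106 and 57.1 CPM (1.22 ± 0.21), and Gzmb, a protease of mast cells and cytotoxic lymphocytes, at 0.568 to 0.929 CPM against 8.67 to 9.99 CPM (3.63 ± 0.25). Ms4a2, a chain of the IgE receptor, was at 3.21, 7.45 and 4.32 CPM against 11.2, 21.2 and 10.6 CPM (1.52 ± 0.38), a call lost without bone marrow replicate 1 (adjusted p = 0.0549) or 3 (0.0621) or lung replicate 1 (0.0645) or 2 (0.0666). Cultured cells held 431 to 456 CPM of Hdc and 19.3 to 22.5 CPM of Cpa3. The connective tissue mast cell tryptase Tpsb2 had 0 CPM in all libraries and Mcpt4 at most 0.0995 CPM, both chosen after their values were seen. Erythroid genes showed no common direction, with 2 of 20 higher and 1 lower (median log2 change 0.01), and with 0 to 4 higher and 0 to 2 lower when 1 library was left out.

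Some p53 target genes were higher and some mitosis genes lower. Of 21 tested p53 target genes 9 were higher and none lower (median log2 change 0.36), while Trp53 itself did not differ beyond its spread. Some of them also belong to other lists, such as Btg2 to the mRNA decay group, and the part of p53 in their rises was not tested. Cdkn1a, the inhibitor p21, was at 2.58, 1.36 and 1.03 CPM in bone marrow and at 16.9, 21.5 and 11.6 CPM in lung (3.34 ± 0.37, adjusted p = 0.001119). Of 20 tested G1 cyclins, their kinases and inhibitors only Cdkn1a and the cyclin gene Ccnd2 were higher, or 5 genes without bone marrow replicate 1, and none was lower (median log2 change 0.15). The growth arrest gene Gadd45a rose by 1.68 ± 0.13 and the kinase Plk3 by 1.34 ± 0.13. Of 32 mitosis genes 9 were lower and none higher (median log2 change -0.19), with 4 lower without bone marrow replicate 2, 5 without lung replicate 1 and 2 without lung replicate 2. Cdk1, the kinase that starts mitosis, was at 208, 173 and 172 CPM against 121, 108 and 114 CPM (-0.69 ± 0.10, adjusted p = 0.001961). Cenpa, the centromeric histone, was at 200 to 232 CPM against 124 to 144 CPM (-0.67 ± 0.10).

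Of 32 DNA replication genes 7 were lower and none higher, or 2 lower without bone marrow replicate 2, 3 without lung replicate 1 and 1 without lung replicate 2. Ung, the uracil glycosylase, was at 21.1, 25 and 23.8 CPM against 13.8, 14.1 and 13.4 CPM (-0.76 ± 0.13, adjusted p = 0.003775). Among 16 tested histone genes 5 were lower and 1 higher, or 2 lower without bone marrow replicate 2, lung replicate 1 or lung replicate 2. The linker histone H1f5 was at 8.35, 10.4 and 9.29 CPM against 3.19, 5.07 and 4.58 CPM (-1.13 ± 0.21, adjusted p = 0.006287), and H2bc4, in a cluster of near-identical genes that makes its counts uncertain, went up by 0.75 ± 0.15. Myc, the growth factor-responsive oncogene, was at 761, 704 and 743 CPM against 529, 602 and 532 CPM (-0.41 ± 0.09), a call lost without lung replicate 1 (adjusted p = 0.0643) or lung replicate 3 (0.0517). The cyclin gene Ccnd2 rose from 105 to 112 CPM up to 138 to 173 CPM (0.56 ± 0.11).

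Small, broad falls affected the protein-making and respiratory machinery. Of 51 nuclear-encoded respiratory chain genes 25 were lower and none higher (median log2 change -0.35), and 34 of 51 did not overlap between the tissues, against 37% of all tested genes. The count was 5 without bone marrow replicate 2, lung replicate 1 or lung replicate 2. Ndufa4, a subunit of cytochrome c oxidase, was at 205, 252 and 214 CPM in bone marrow and 146, 151 and 160 CPM in lung (-0.56 ± 0.10, adjusted p = 0.0056), and Cox7b, of the same complex, at 197 to 263 CPM against 142 to 162 CPM (-0.58 ± 0.12). Bone marrow replicate 2 was the highest library for both. The 10 tested members of the mitochondrially encoded list gave 0 calls in edgeR, DESeq2 or limma-voom. Their median log2 change was -0.07, with 0 at an unadjusted p under 0.05. Of all 18 tested genes on the mitochondrial chromosome 3 were higher, all by more than 2-fold, and none was lower (median log2 change 0.13). At most 0.368% of the reads of a library came from mitochondrially encoded genes as a whole. Mitochondrial ribosome genes were lower in 8 of 55, or 16 without bone marrow replicate 1, 0 without bone marrow replicate 2, 2 without lung replicate 1 and 1 without lung replicate 2.

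Cytosolic ribosomal proteins were lower in 28 of 59 and higher in none (median log2 change -0.36), though in 2 without bone marrow replicate 2 or lung replicate 2, 3 without lung replicate 1 and 15 without lung replicate 3. Rps20 was at 214, 259 and 186 CPM against 132, 138 and 152 CPM (-0.64 ± 0.12, adjusted p = 0.007048), and Rps25 at 306, 400 and 307 CPM against 213, 216 and 247 CPM (-0.58 ± 0.12). Both have processed pseudogenes that could take or give reads. Proteasome genes were lower in 7 of 34, or 12 without bone marrow replicate 1, 1 without bone marrow replicate 2, lung replicate 1 or lung replicate 2 and 3 without lung replicate 3. Psma3, a core particle subunit, was at 367, 450 and 416 CPM against 301, 288 and 295 CPM (-0.48 ± 0.10). Factors that build ribosomes did not follow, with 3 of 28 higher and 1 lower. The rises numbered 7 without bone marrow replicate 1, 2 without lung replicate 1 and 1 when bone marrow replicate 2 or 3, or lung replicate 2, was left out. Rrp12 rose from 131 to 138 CPM up to 190 to 203 CPM (0.54 ± 0.09).

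Sterol genes went against these falls. Of 27 cholesterol synthesis and uptake genes 8 were higher and none lower (median log2 change 0.25), or 5 without lung replicate 1 and 4 without lung replicate 2. Hmgcs1, an early enzyme of the pathway, was at 44.6, 39 and 52.4 CPM in bone marrow and 90.9, 94 and 81.2 CPM in lung (0.97 ± 0.12, adjusted p = 6.91e-04), and its groups did not overlap. Of 22 glycolysis genes 5 were higher, or 3 without lung replicate 1 and 2 when bone marrow replicate 2 or lung replicate 2 or 3 was left out, led by the hexokinase gene Hk2 at 4.5 to 7.58 CPM against 11.4 to 13.9 CPM (1.18 ± 0.21). Of 32 chromatin genes 8 were higher and none lower, or 16 without bone marrow replicate 1, 4 without bone marrow replicate 2, lung replicate 1 or lung replicate 2 and 5 without bone marrow replicate 3. The histone demethylase Kdm6b rose from 3.66 to 5.95 CPM up to 11.7 to 16.8 CPM (1.47 ± 0.21) and the DNA methyltransferase Dnmt3a from 13.3 to 19.8 CPM up to 34 to 42.5 CPM (1.13 ± 0.16).

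Among called genes of 10 CPM or more whose groups did not overlap, the largest falls formed no family among the lists. Secondary granule genes of neutrophils, described below, fell further (median log2 change -4.08), but only 2 of 18 were called. C78283 was at 12, 25.5 and 19.4 CPM in bone marrow and 6.83, 7.49 and 8.65 CPM in lung (-1.31 ± 0.25, adjusted p = 0.009662). Col5a1, a fibrillar collagen chain, was at 170, 227 and 198 CPM against 98.2, 114 and 125 CPM, with 121 to 128 CPM in culture (-0.82 ± 0.13, adjusted p = 0.002381). Id1, an inhibitor of helix-loop-helix factors and a target of BMP signalling, was at 9.94 to 12.3 CPM against 5.37 to 6.71 CPM (-0.83 ± 0.17), a call lost without lung replicate 2 (adjusted p = 0.0541). Bik, a pro-apoptotic gene, was at 15.3 to 19 CPM against 8.39 to 11.4 CPM (-0.80 ± 0.16).

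In the long noncoding classes most calls were falls. Of 357 lincRNAs tested 62 were lower and 6 higher (median log2 change -0.48), and of 460 antisense genes 59 were lower and 8 higher (-0.42). The SMART-seq kit does not keep the strand of the RNA, so reads of an antisense gene and its partner cannot be told apart. Protein-coding genes gave 1343 higher and 689 lower of 11715 (median 0.04). Over the lincRNA, antisense, TEC (genes to be experimentally checked) and processed transcript classes together, summed levels were 7535, 8301 and 8333 CPM in bone marrow and 6775, 6747 and 7042 CPM in lung, which did not overlap.

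Host genes of small nucleolar RNAs, whose own transcripts are spliced, hardly translated and quickly destroyed, were picked out from these after their values were seen. Of 17 tested, 7 were lower and none higher (median log2 change -0.33). Snhg4 was at 124, 215 and 119 CPM in bone marrow and at 63.1, 73.8 and 64.1 CPM in lung (-1.19 ± 0.23, adjusted p = 0.01651), with 35 to 43.2 CPM in culture. Its call was lost without lung replicate 1 (adjusted p = 0.0811) or lung replicate 3 (0.0589). Dancr was at 23.2, 32.6 and 23.7 CPM against 12.8, 14.9 and 14.7 CPM (-0.90 ± 0.16, adjusted p = 0.004619). Bone marrow replicate 2 was the highest library for both. Gas5 (-0.29) and Snhg1 (0.03) did not pass.

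Calls also differed with the span of the gene in the genome. Of protein-coding genes that span less than 5 kb, 122 of 1313 were higher and 150 lower (median log2 change -0.12), whereas of those over 100 kb 197 of 1412 were higher and 33 lower (0.18). The bins between them were ordered alike, with medians of -0.03, 0.04 and 0.13 from 5 to 20, 20 to 50 and 50 to 100 kb. Span and the gene groups above were not separated in any fit, so the part of span in their changes was not tested.

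**Figure D4:**
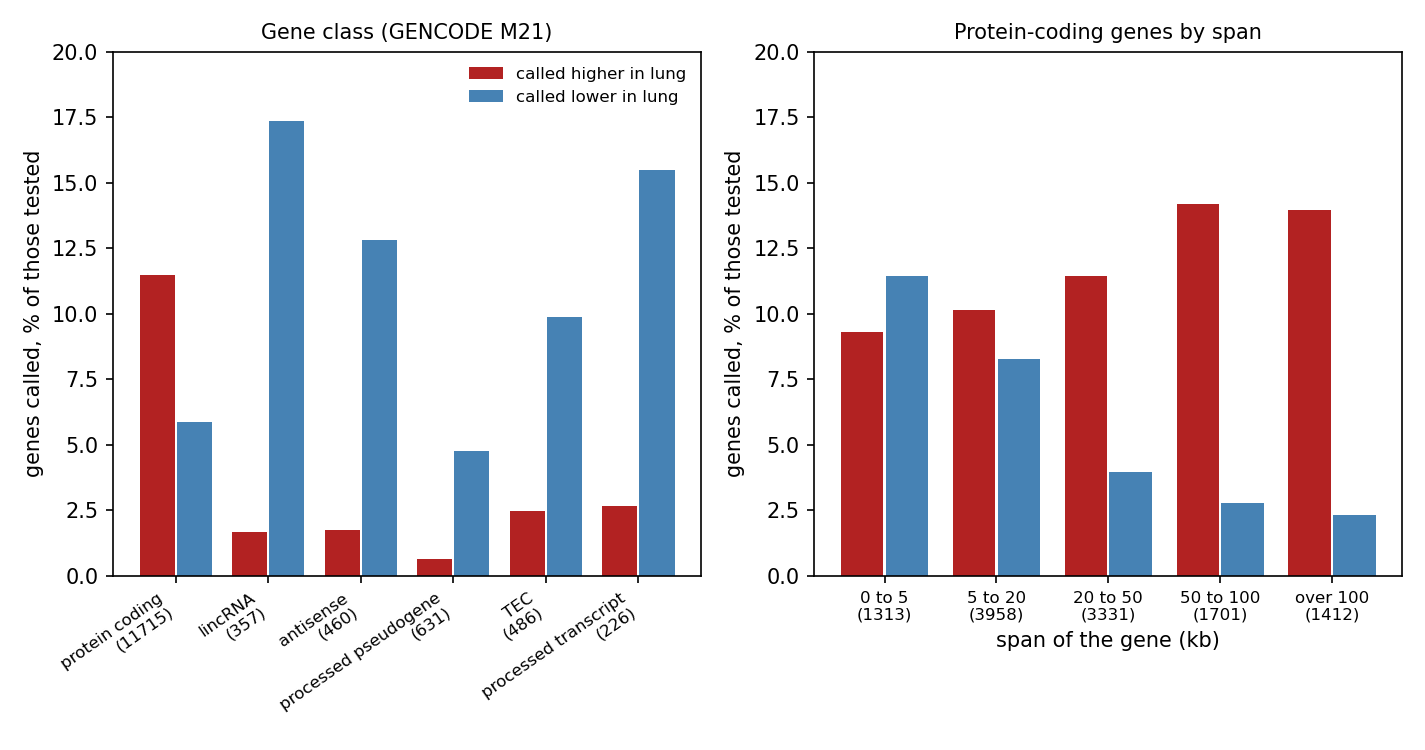
Percent of tested genes called higher (red) or lower (blue) by annotated gene class (left) and by the genomic span of protein-coding genes in kb (right), with the number tested in brackets. Calls in the noncoding classes are mostly falls, and among protein-coding genes the share of falls shrinks from the shortest to the longest bin.

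Markers of other cells differed between the tissues too, and their part in the results above was not tested. Of 16 tested endothelial markers 10 were higher and none lower (median log2 change 3.42), or 6 with a filter of 1 CPM. Pecam1 was at 0.601, 0.347 and 0.954 CPM in bone marrow and 9.86, 3.12 and 2.83 CPM in lung (3.04 ± 0.60, adjusted p = 0.01514), a call lost without bone marrow replicate 2 (adjusted p = 0.0608). Sftpc, the surfactant gene of alveolar type II cells, had 2 reads in all bone marrow libraries together and 1967 in all lung libraries, at 36.4, 8.39 and 10.9 CPM. Sftpa1 had 0 reads and 635 reads, and Epas1, a hypoxia factor of endothelium, 0 CPM in bone marrow against 13.7, 5.54 and 1.84 CPM. Epas1 counted among the higher hypoxia genes (4 of 16), and that list had 0 higher without bone marrow replicate 2 or lung replicate 2 and 2 without lung replicate 1. Lung replicate 1 was the highest lung library for all 4 genes.

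Of 9 tested T and NK cell markers 4 were higher, or 1 without bone marrow replicate 2, 7 without bone marrow replicate 3 and 2 without lung replicate 3, with Trac, chosen after its values were seen, at no more than 0.668 CPM. Resident macrophage markers were lower in 6 of 11 and higher in none; their summed levels were 277 to 307 CPM in bone marrow and 173 to 233 CPM in lung, most of it Slc40a1, the iron exporter ferroportin, at 224 to 255 CPM against 137 to 197 CPM, a gene also at 228 to 255 CPM in culture. Of 18 secondary granule genes of neutrophils 16 were at lower levels in every lung library than in any bone marrow library. Among all tested genes, the groups did not overlap, in either direction, in 37%. Of the 18, however, 2 passed (median log2 change -4.08). Other fits gave 17 lower with DESeq2, 15 with limma-voom and 15 in the fit of all 9 libraries, and 6, 1 and 5 without bone marrow replicates 1, 2 and 3 in turn. When any 1 lung library was left out, 0 passed. Of 9 primary granule genes 2 were higher and 2 lower (median log2 change -4.38), or 5 lower with DESeq2 or limma-voom, and 0 to 3 higher and 0 to 4 lower when 1 library was left out. Their summed levels were 51.3, 62.1 and 164 CPM in bone marrow and 123, 247 and 136 CPM in lung, where most came from Serpinb1a, chosen after its values were seen (77, 198 and 88.8 CPM, adjusted p = 0.05078). Igfbp4, a binding protein of insulin-like growth factors, was higher at 21.3 to 26.8 CPM against 7.13 to 16.4 CPM (1.19 ± 0.29, adjusted p = 0.03004), as was Cst7, the protease inhibitor cystatin F (0.61 ± 0.14). Mpo, the myeloperoxidase of these granules, was at 11.1, 12.4 and 58.7 CPM against 2.29, 0.464 and 0.159 CPM and did not pass (-4.75 ± 1.28, adjusted p = 0.07906). The 7 tested B cell markers gave 0 calls in edgeR, DESeq2 or limma-voom, 0 at an unadjusted p under 0.05, and 1 higher without lung replicate 3.

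**Figure D5:**
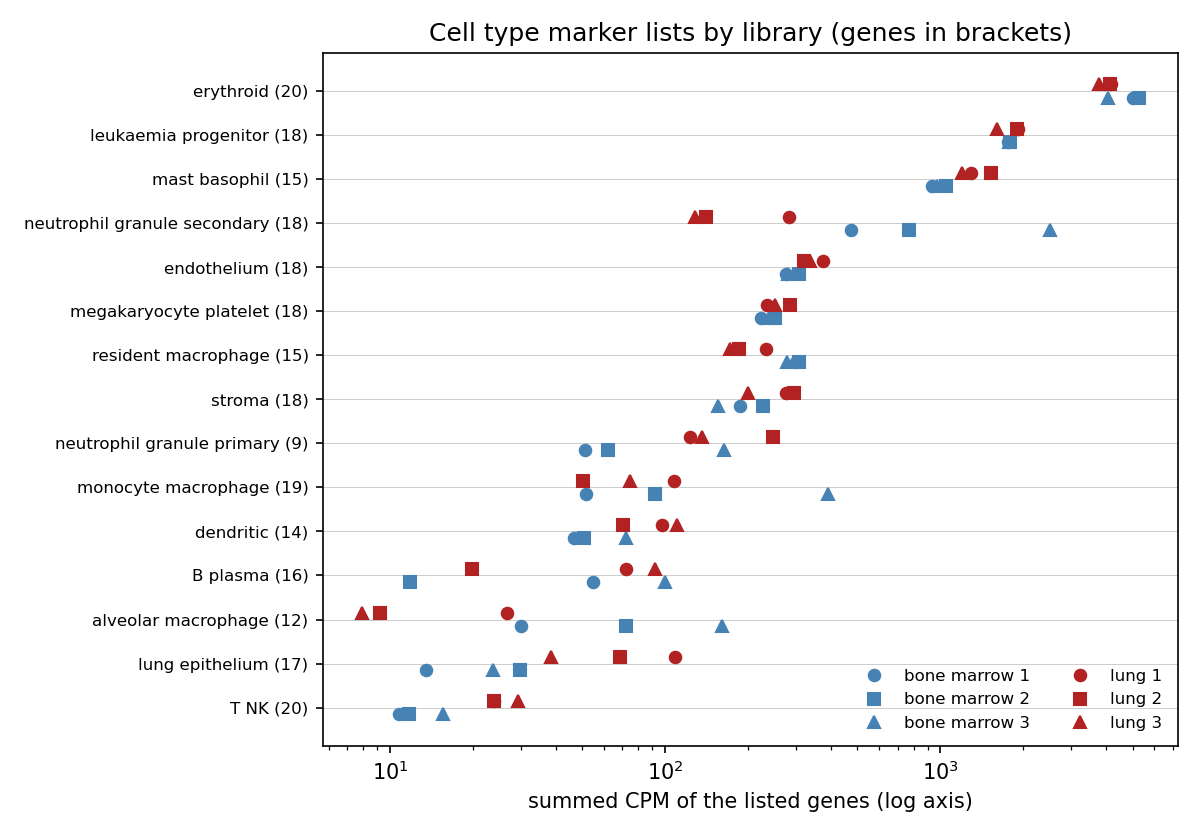
Summed CPM of each list of cell type markers (rows, with the number of genes in brackets) in each bone marrow library (blue) and lung library (red), on a log axis. Secondary granule genes lie highest in bone marrow replicate 3, at 2507 CPM, and lung epithelium genes highest in lung replicate 1, at 109 CPM.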

How the data were processed

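RNA was sequenced from 3 bone marrow, 3 lung and 3 culture samples. Per the labels' protocols, total RNA was extracted with a micro column kit, amplified with SMART-seq v4 and made into libraries with ThruPLEX. Per the submitters' processing notes, bcl2fastq, STAR and the genome build mm10 were used, without versions; the counting tool and annotation are not stated there or in the file headers. The deposited files hold whole-number read counts for 55291 gene symbols, not normalized. Amplified reads without molecular identifiers are not independent molecules. Of these symbols 53186 matched a single gene of GENCODE M21, which gave coordinates (GRCm38), class and span, with 99.0% of the reads.

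The 6 tissue libraries were fitted alone, because the spread between culture libraries was smaller (median coefficient of variation 6.5%, against 13.4% for bone marrow and 11.1% for lung). In R 4.3.3, edgeR 4.0.16 filtered genes with filterByExpr (14574 kept, at least 99.89% of each library's reads), scaled with TMM and ran the robust quasi-likelihood test on the counts; a gene was called at a Benjamini-Hochberg adjusted p under 0.05. SE is that of the log2 change. CPM uses the TMM-scaled library sizes. Lists are described by counts and medians, without a set test.

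The lists and the genes named were chosen with earlier results of these data known. Named genes were the 15 largest rises and falls among called, non-overlapping genes of 10 CPM or more, the 8 largest of each among genes of 100 CPM or more in the lower tissue, up to 4 called members per direction of each list (5 CPM or more) or its most abundant member, and 9 set genes, without predicted genes or pseudogenes. Genes outside this rule are marked as picked later. Some genes that the rule chose are not reported here.

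Promoter letters were searched in RefSeq sequences (GRCm38.p6) over 250 bases before the start. Alternatives were other scalings, filters, DESeq2 1.42.0, limma-voom (limma 3.58.1), glmTreat at 1.5-fold, all 9 libraries, a replicate block and leaving out each library. No 2 libraries of a group agreed within sampling noise (chi-square per degree of freedom of 16.1 or more). In simulated data 200 genes with a mean of 1 CPM or more were changed. The fit of lung against bone marrow recovered 46.3%, 71.6% and 87.9% of those changed 1.5, 2 and 4-fold, with 8 false calls among 14266 genes. Genes were drawn independently and far fewer changed than the 2381 called in the data, so these rates need not hold there.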

Additional observations from a re-analysis of the deposited data

How the results depend on the processing

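The total of 2381 calls became 3576 without a low-count filter, 329 with glmTreat against 1.5-fold, 3806 in the fit of all 9 libraries and 4553 with the replicate block, and 810 to 3103 when 1 library was left out. Genes higher in lung (1400) became 2127, 287, 2138 and 2512 in the same 4 fits, and 630 to 1791 without 1 library. Genes lower (981) became 42 with glmTreat, 1668 in the fit of all 9 libraries and 2041 with the replicate block, and 180 to 1312 without 1 library. Calls past 2-fold (774) became 1431 without the filter, 508 with a filter of 1 CPM, 325 with glmTreat and 457 to 923 without 1 library.

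No called gene was called in the opposite direction in an alternative that tested it. The filter of 1 CPM tested 2109 of the 2381, and the fit without bone marrow replicate 1 tested 2380. Changes of sign without a call were not counted over all 2381. Of the 2381 calls, 223 were kept in all alternatives and 539, of which 428 were higher, in the 15 without glmTreat. Among the 194 genes chosen by the naming rule 185 were called, and 56 of these were called in every alternative. None of the 185 changed sign in any alternative. The share of calls that were higher fell to 48.9% with upper-quartile scaling. Of the genes that did not pass, Kit turned to 0.01 with limma-voom. When 1 library was left out, the log2 change of Kit ran from -0.16 to 0.14, that of Ighm from -0.29 to 0.89, that of Trp53 from -4.6e-04 to 0.16 and that of Ptprc from -0.28 to 1.94.

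The labels do not say that replicate numbers pair the samples, and the check did not show it. With the replicate block 4553 genes were called, but only the pair of replicates numbered 2 had a residual correlation over 0.1 (0.3, against 0.02 and 0.08), and libraries with different numbers gave -0.27 to 0.16. Not every library correlated best with its own number. The cause of these shifts was not tested. With 3 libraries a tissue, 46.3% of genes of 1 CPM or more simulated at 1.5-fold were recovered, and genes with few reads have no precise fold.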

Other observations

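A pair of unnamed noncoding genes, chosen after their values were seen, lay next to each other on chromosome 8 and moved alike. Gm37352 (84200869 to 84203049, GRCm38) was at 0.21, 0.221 and 0.201 CPM in bone marrow against 11.6, 9.85 and 12.2 CPM in lung, a rise of 5.71 ± 0.25 in log2 (SE; edgeR adjusted p = 1.4e-07). Gm26532 (84208920 to 84209609) was at 0.3, 0.253 and 0.427 CPM against 10.1, 11 and 13.8 CPM (5.12 ± 0.27; adjusted p = 5.91e-07). Both were below 1 CPM in every culture library. The tested protein-coding gene nearest to both, Zswim4, did not pass (log2 change 0.03, adjusted p = 0.9024).

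Ighm, the heavy chain gene of immunoglobulin M, ranged widely, with 50.5, 7.1 and 78.5 CPM in bone marrow replicates 1, 2 and 3 and 61.6, 12.3 and 86.7 CPM in lung. It did not pass (log2 change 0.24 ± 1.13; adjusted p = 0.9061). Replicate 2 was the lowest library in both tissues, and the 3 culture libraries were at 319 to 336 CPM.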
